A study of Homo sapiens with 12 samples.

Results

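The nuclear genes that encode subunits of the oxidative phosphorylation complexes were compared between 3 human prostate cancer cell lines. Members were the protein-coding genes of the count table whose symbol begins with NDUFA, NDUFB, NDUFC, NDUFS, NDUFV, UQCR, COX4I, COX5, COX6, COX7, COX8, ATP5F1, ATP5M or ATP5P, together with CYC1 and SDHA to SDHD. This rule found 98 of 57992 genes. Of these, 88 encode subunits, with 37 in complex I, 4 in complex II, 10 in complex III, 19 in complex IV and 18 in complex V. Another 8 carry the symbol NDUFAF and encode assembly factors of complex I, and 2 are readthrough genes, so both kinds are counted apart from the subunits. NDUFA4 and NDUFA4L2 were counted with complex IV, where the NDUFA4 protein is now placed. After the filter on low counts 90 members were tested, among them 82 subunit genes.

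Poly(A) RNA was sequenced from MR49F, an enzalutamide-resistant derivative of LNCaP, from C4-2, a castration-resistant subline of LNCaP that the labels give as sensitive to enzalutamide, and from LNCaP, an androgen-responsive and enzalutamide-sensitive line. Enzalutamide blocks the androgen receptor. Each line had 3 libraries, which the series text calls biological replicates without saying how the cultures were separated. MR49F and C4-2 each stand for 1 derivative of LNCaP, so a difference between lines cannot be told apart from a difference between clones. The labels name no treatment of the cells at harvest, and C4-2R, the other resistant line, was not analysed here. Poly(A) RNA of a whole culture was counted, so fewer cells of a type and less RNA per cell cannot be told apart.

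Oxidative phosphorylation passes electrons from NADH through complex I, or from succinate through complex II, to ubiquinone, then through complex III to cytochrome c and through complex IV to oxygen. Complexes I, III and IV pump protons across the inner mitochondrial membrane, and complex V, the ATP synthase, uses their return to make ATP. A few subunits are encoded by mitochondrial DNA and the rest by nuclear genes, which must be expressed in balance for the complexes to assemble. Normal prostate epithelium is known for accumulating citrate and oxidising little of it, and prostate cancer cells for a higher use of the citric acid cycle. The 13 mitochondrially encoded subunit genes were listed at 0 in every library, so the nuclear genes alone are described.

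Total counts per library were 8595344 to 9375912 in MR49F, 7140308 to 42770072 in C4-2 and 6990461 to 8989245 in LNCaP. The highest of these was C4-2 replicate 1, which also stood apart in the levels of the subunit genes. Levels are given as CPM, counts scaled to a common library size. The 3 lines expressed prostate luminal markers throughout, with all 9 of the list tested and a summed level of 8604 to 8842 CPM in MR49F, 7054 to 8129 CPM in C4-2 and 5864 to 6018 CPM in LNCaP. The basal list summed to 0.461 to 0.594 CPM in MR49F, 0.859 to 1.34 CPM in C4-2 and 1.07 to 1.25 CPM in LNCaP, with KRT5 at 0. The fibroblast list, mostly COL1A1, summed to 7.15 to 8.67 CPM in MR49F, 20.4 to 25.8 CPM in C4-2 and 26.0 to 29.5 CPM in LNCaP, with COL1A2 at 0. Leukocyte and endothelial lists stayed at or below 0.219 CPM and 0.115 CPM.

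The subunit genes together took 1.15 to 1.17% of the counts in MR49F, 1.01 to 1.20% in C4-2 and 1.08 to 1.13% in LNCaP. Their summed level was 11925 ± 81.5 CPM in MR49F, 10943 ± 1167 CPM in C4-2 and 10666 ± 299 CPM in LNCaP (SD, n = 3 each). The MR49F libraries held 12018, 11893 and 11865 CPM, the C4-2 libraries 12291, 10259 and 10279.8 CPM, and the LNCaP libraries 10562, 11002 and 10433 CPM. All MR49F libraries were above all LNCaP libraries, while C4-2 replicate 1 was the highest of the 9 and the other C4-2 libraries were the lowest. Complex V took the most counts in every line, 5045 ± 47.0 CPM in MR49F, 4151 ± 428 CPM in C4-2 and 4387 ± 111 CPM in LNCaP. Complex IV summed to 1749 ± 52.9 CPM in MR49F, 1692 ± 243 CPM in C4-2 and 1432 ± 54.3 CPM in LNCaP. The spread of the C4-2 sums comes from the distance of replicate 1 to the other libraries of that line.

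**Figure D1:**
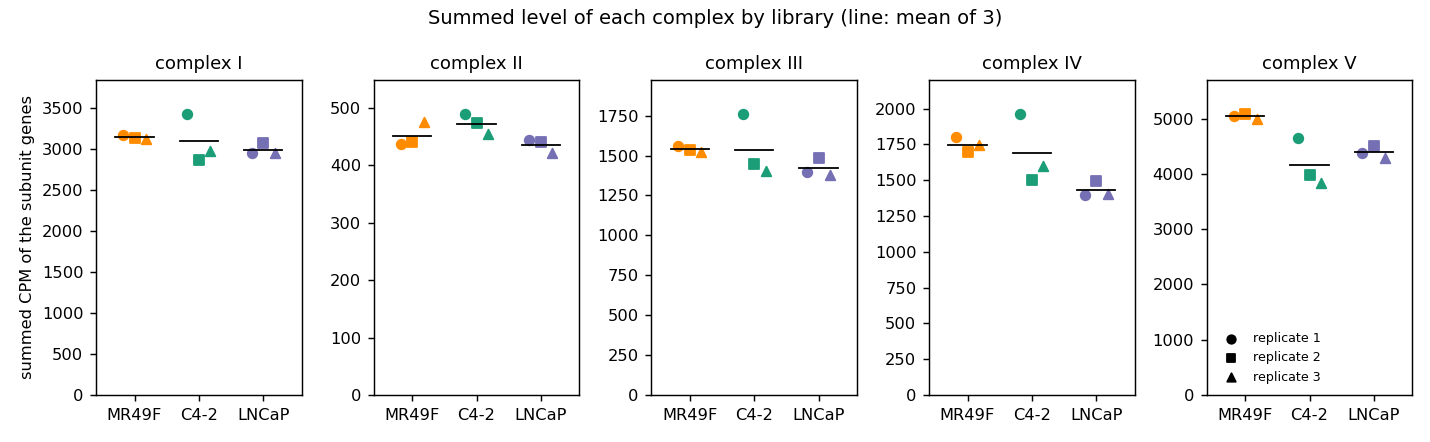
Summed CPM of the tested subunit genes of each complex, by library, for MR49F, C4-2 and LNCaP. Points are libraries, with a shape for each replicate number, and the short line is the mean of 3 libraries. MR49F lay above LNCaP in complex V (5045 against 4387 CPM) and in complex IV (1749 against 1432 CPM), and C4-2 replicate 1 lay above the other C4-2 libraries.

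C4-2 replicate 1 was the highest of its 3 libraries for 73 of 82 subunit genes (89.0%), against 37.4% of all tested genes. Its median excess over the mean of the other C4-2 libraries was 0.29 on the log2 scale, against 0.01 over all tested genes. The excess was 0.28 in complex I, 0.10 in complex II, 0.35 in complex III, 0.32 in complex IV and 0.34 in complex V. The corresponding medians of replicate 1 were 0.01 in MR49F and −0.03 in LNCaP. LNCaP replicate 2 was the highest of its line for 56 of 82 subunit genes (68.3%), against 36.3% of all tested genes. The median coefficient of variation of the subunit genes was 5.32% in MR49F, 14.3% in C4-2 and 5.06% in LNCaP. For that reason most results on C4-2 are given with and without replicate 1. The part that depth or culture had in this excess was not tested. A fit with replicate 1 thinned to 20.1% of its counts cannot decide it, since thinning keeps the expected share of each gene in the library.

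**Figure D2:**
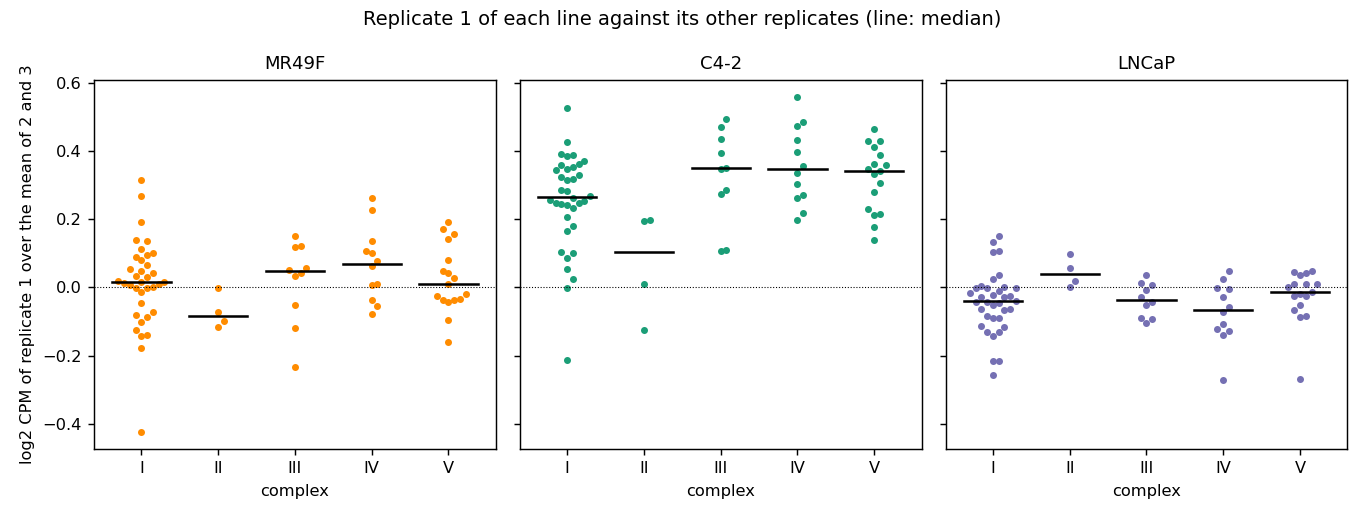
Difference in log2 CPM between replicate 1 and the mean of replicates 2 and 3 in each line, by complex, with 1 point per subunit gene and a line at the median. The 3 genes under 20 CPM are left out. The C4-2 medians lay above 0 in every complex (0.10 to 0.35), whereas MR49F and LNCaP scattered around 0.

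Levels can be compared between genes only per length. Per kilobase of merged exons, ATP5F1B, the catalytic beta subunit of the ATP synthase, had the highest level at 671 CPM per kb over the 9 libraries. NDUFS5 followed at 275 and COX8A at 210 CPM per kb. The median was 58.5 CPM per kb in complex III, 54.8 in complex IV, 42.3 in complex V, 29.4 in complex I and 24.5 in complex II. The lowest tested subunit genes were NDUFA4L2 at 1.02 CPM per kb and NDUFS7 and COX7B2 at 3.58 CPM per kb each.

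MR49F against LNCaP sets the resistant line against the line it derives from. More subunit genes were higher than lower in MR49F. Genes were called by edgeR's quasi-likelihood test where the p-value, adjusted by Benjamini-Hochberg across the 15407 genes tested, was under 0.05. By this rule 34 of 82 subunit genes rose (41.5%) and 6 fell (7.32%). Over all tested genes 24.1% were called higher and 22.8% lower, and among genes of at least 20 CPM 28.1% and 22%. The median log2 fold change of the subunit genes was 0.16, against 0.01 over all tested genes. The differences were small, since the median fold of the genes that rose was 1.31 and only 7 subunit genes passed 1.5-fold in either direction. Libraries did not overlap for 56 of 82 subunit genes, all 40 called genes among them, against 59.8% of all tested genes. The split depended on scaling: with library totals in place of TMM, 22 subunit genes rose and 13 fell, with a median of 0.07 against −0.08 over all genes. Leaving out LNCaP replicate 1, 2 or 3 left 22, 24 or 22 higher and 6, 6 or 5 lower, and leaving out C4-2 replicate 1, which enters through the shared spread, gave 41 and 9. Leaving out a library can change the calls of all genes, whose shares in these fits are not given here.

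By complex, 10 of 14 tested genes of complex IV rose and 3 fell, with a median log2 fold change of 0.34. In complex V 11 of 17 rose and none fell, with a median of 0.27. Complex V also had no lower gene at an unadjusted p under 0.05, nor with DESeq2 or voom. Complex III had 4 of 10 higher and none lower (median 0.21), with 1 lower at an unadjusted p under 0.05 and none with DESeq2 or voom. Complex I had 8 higher and 3 lower of 37 (median 0.11), and complex II 1 higher of 4 (median 0.04) and none lower by edgeR, DESeq2, voom or an unadjusted p under 0.05. With library totals the counts of higher and lower genes were 6 and 6 in complex I, 1 and 1 in complex II, 2 and 2 in complex III, 5 and 4 in complex IV and 8 and 0 in complex V.

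**Figure D3:**
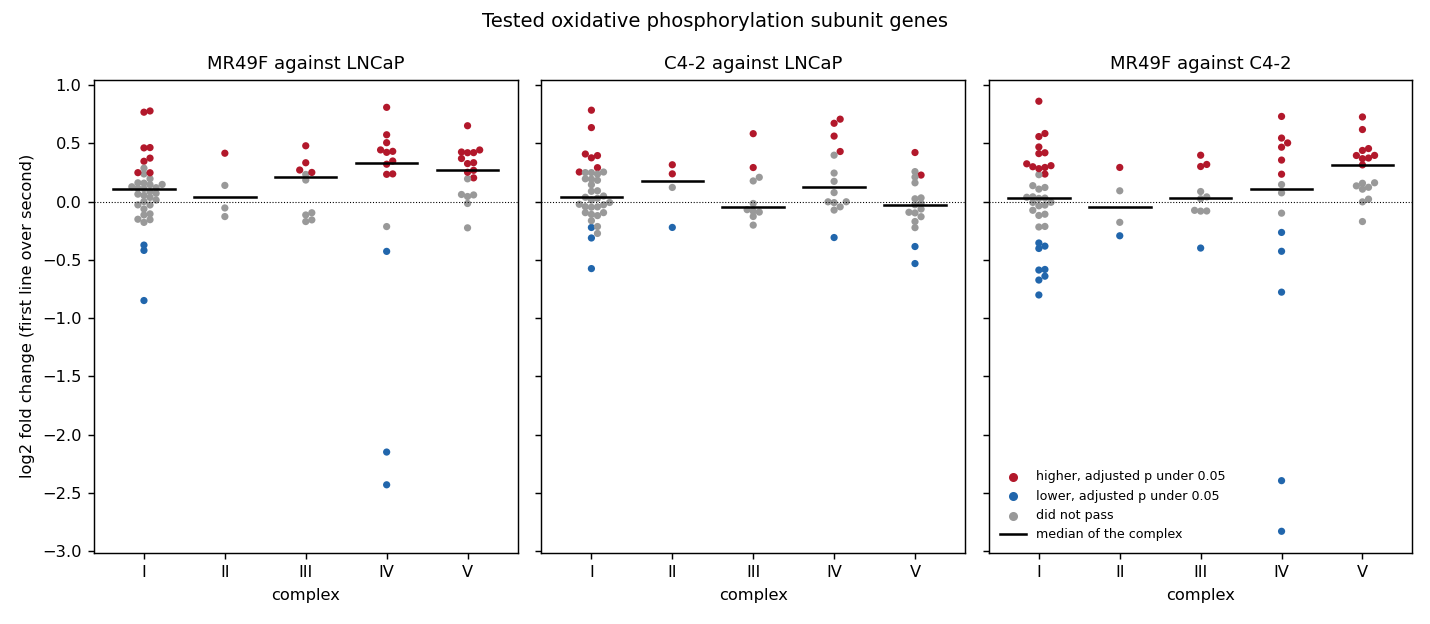
Log2 fold change of each tested subunit gene by complex in the comparisons MR49F against LNCaP, C4-2 against LNCaP and MR49F against C4-2, with red points for genes that rose, blue for genes that fell (adjusted p under 0.05), grey for genes that did not pass and a line at the median of each complex. In MR49F against LNCaP 11 of 17 complex V genes and 10 of 14 complex IV genes rose, and in C4-2 against LNCaP 2 of 17 and 4 of 14 did.

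In complex I, the NADH dehydrogenase, the genes that changed most between MR49F and LNCaP encode accessory subunits of the membrane arm. NDUFB4 (ENSG00000065518), an accessory subunit of the distal membrane arm, had 170.4, 163 and 166 CPM in MR49F, 326, 274 and 267 CPM in C4-2 and 296, 314 and 289 CPM in LNCaP. All MR49F libraries lay far below those of both other lines. The log2 fold change was −0.85 ± 0.08 (SE, adjusted p = 4.31e-08) against LNCaP and −0.80 ± 0.08 (adjusted p = 5.18e-08) against C4-2. NDUFA1 (ENSG00000125356), a small membrane subunit needed for assembly of the complex, had 154, 140.1 and 149 CPM in MR49F, 109.6, 91.0 and 92.9 CPM in C4-2 and 86.2, 88.3 and 83.8 CPM in LNCaP. MR49F was above both other lines in every library. NDUFA1 rose by 0.78 ± 0.09 on the log2 scale in MR49F against LNCaP (SE, adjusted p = 2.41e-07). NDUFB11 (ENSG00000147123), another accessory membrane subunit, had 89.1, 90.7 and 86.2 CPM in MR49F, 59.8, 37.7 and 45.2 CPM in C4-2 and 48.9, 57.7 and 49.5 CPM in LNCaP. It rose by 0.77 ± 0.12 (SE, adjusted p = 3.15e-05), with no MR49F library below any other.

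NDUFA10, an accessory subunit related to nucleoside kinases, had 147, 153 and 137 CPM in MR49F and 99.3, 109 and 108 CPM in LNCaP, and rose by 0.46 ± 0.08 on the log2 scale (SE, adjusted p = 6.31e-05). NDUFS5, an accessory subunit on the intermembrane side, had 184, 180.0 and 184 CPM in MR49F and 141, 133 and 123 CPM in LNCaP, and rose by 0.46 ± 0.09 (SE, adjusted p = 0.000354). Neither gene overlapped between the lines. NDUFA6, which carries a LYR motif and binds the mitochondrial acyl carrier protein, was lower, with 63.4, 65.0 and 60.6 CPM in MR49F and 78.2, 87.1 and 79.3 CPM in LNCaP (−0.37 ± 0.10, SE, adjusted p = 0.00434). NDUFA13, also known as GRIM-19, was lower at 25.8, 23.3 and 18.2 CPM in MR49F and 29.7, 28.5 and 32.0 CPM in LNCaP (−0.42 ± 0.14, SE, adjusted p = 0.02). That call was lost without MR49F replicate 3 or LNCaP replicate 3, with an adjusted p of up to 0.129. The other complex I genes that rose were NDUFA8, NDUFB1, NDUFA5 and NDUFV1, the last of which holds the flavin that accepts electrons from NADH, by 0.25 to 0.37 on the log2 scale. NDUFA8 and NDUFB1 passed under all 19 alternatives other than the 1.5-fold test, while NDUFA5 lost its call in 5 and NDUFV1 in 6. These included library totals and LNCaP replicates 2 and 3 left out for both genes, MR49F replicate 3 for NDUFA5 (0.15, adjusted p = 0.155), and LNCaP replicate 1 and MR49F replicates 1 and 2 for NDUFV1 (adjusted p up to 0.111).

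The core subunits of complex I carry its flavin and iron-sulphur clusters. NDUFS1, the largest iron-sulphur subunit of the matrix arm, had 197, 194 and 202 CPM in MR49F, 134, 164 and 147 CPM in C4-2 and 218, 222 and 219.7 CPM in LNCaP. Its values did not overlap between any of the lines and were lowest in C4-2. Against LNCaP the log2 fold change was −0.15 ± 0.08 in MR49F (SE, adjusted p = 0.12) and −0.57 ± 0.08 in C4-2 (SE, adjusted p = 5.44e-06; −0.50 without C4-2 replicate 1).

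The promoters of NDUFB4, NDUFA1, NDUFB11, COX7B and ATP5MK, the subunit genes of at least 20 CPM that differed by over 1.5-fold in MR49F against LNCaP, are shown because the nuclear genes of oxidative phosphorylation are known targets of NRF1, GABP, ERR and YY1. They are the 200 bases before the RefSeq start on build GRCh38.p14, written 5′ to 3′ on the gene's strand, with matches to the motifs in capitals. The regions are chr3:120596136-120596335 (plus strand) for NDUFB4, chrX:119871632-119871831 (plus) for NDUFA1, chrX:47144703-47144902 (minus) for NDUFB11, chrX:77899268-77899467 (plus) for COX7B, a complex IV subunit, and chr10:103396476-103396675 (minus) for ATP5MK, a complex V subunit.
NDUFB4: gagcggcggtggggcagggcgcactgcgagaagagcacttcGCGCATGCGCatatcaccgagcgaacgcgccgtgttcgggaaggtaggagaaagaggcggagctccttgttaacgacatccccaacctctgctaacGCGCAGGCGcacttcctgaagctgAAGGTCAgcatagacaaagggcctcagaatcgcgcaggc
NDUFA1: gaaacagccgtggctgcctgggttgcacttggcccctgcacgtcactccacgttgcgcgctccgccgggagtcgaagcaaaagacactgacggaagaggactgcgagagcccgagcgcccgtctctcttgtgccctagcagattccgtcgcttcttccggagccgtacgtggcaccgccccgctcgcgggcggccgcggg
NDUFB11: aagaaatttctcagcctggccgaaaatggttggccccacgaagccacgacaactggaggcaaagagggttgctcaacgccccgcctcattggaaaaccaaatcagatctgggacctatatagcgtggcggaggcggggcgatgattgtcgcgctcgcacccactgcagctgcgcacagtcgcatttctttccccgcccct
COX7B: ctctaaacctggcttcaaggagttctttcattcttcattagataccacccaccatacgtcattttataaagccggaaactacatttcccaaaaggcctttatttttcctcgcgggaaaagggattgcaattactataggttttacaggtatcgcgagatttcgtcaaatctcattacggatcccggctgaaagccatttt
ATP5MK: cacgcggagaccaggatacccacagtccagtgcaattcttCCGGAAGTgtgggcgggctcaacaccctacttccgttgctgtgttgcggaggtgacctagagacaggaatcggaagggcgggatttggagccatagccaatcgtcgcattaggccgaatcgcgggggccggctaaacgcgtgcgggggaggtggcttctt

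The motifs searched on both strands were GCGCANGCG (NRF1-type), CCGGAAGT (ETS or GABP-type), AAGGTCA (ERR-type) and AAGATGGC (YY1-type), in 300 bases, 250 before and 50 after the start. NDUFB4, which fell in MR49F, holds 4 NRF1-type matches in this window. In the printed bases these are overlapping matches at −159 and −158 and another at −63, beside an ERR-type match at −39, counted to the first base of the match from the start, and the remaining NRF1-type match crosses the start and is not in capitals. ATP5MK holds an ETS-type match at −160. NDUFA1, NDUFB11 and COX7B hold none of the 4 motifs in the window. RefSeq promoters matched 66 of the 82 tested subunit genes. The NRF1-type motif was in 22 of them (33.3%), against 7.52% of all 35116 promoters of the table and 15.4% of 10814 promoters of tested genes. The ETS-type motif was in 10 (15.2%, against 4.14% and 8.91%), the ERR-type in 9 (13.6%, against 3.92% and 2.57%) and the YY1-type in 11 (16.7%, against 2.89% and 5.51%). At least 1 of the 4 was in 37 of 66 subunit promoters (56.1%), against 28.6% of promoters of tested genes. In MR49F against LNCaP, the NRF1-type motif was in 5 of 26 promoters of genes that rose, 1 of 5 of genes that fell and 16 of 35 of genes that did not pass. These are matches of letters and show nothing of binding in these cells.

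Complex II, succinate dehydrogenase, has 4 subunits, all nuclear. SDHB (ENSG00000117118), the iron-sulphur subunit, had 83.9, 84.2 and 95.6 CPM in MR49F, 77.8, 66.3 and 69.5 CPM in C4-2 and 66.4, 68.7 and 62.3 CPM in LNCaP. It rose in MR49F by 0.42 ± 0.09 on the log2 scale against LNCaP (SE, adjusted p = 0.000715), and no MR49F library overlapped LNCaP or C4-2. SDHA, the flavoprotein, did not pass in MR49F, with 143, 148 and 138 CPM against 148, 156 and 140.2 CPM in LNCaP (−0.05 ± 0.08). The membrane anchors did not pass either, at −0.13 ± 0.08 for SDHC and 0.14 ± 0.10 for SDHD. C4-2 differed from LNCaP in other members: SDHA had 191, 171 and 162 CPM there and rose by 0.24 ± 0.08 (SE, adjusted p = 0.0193), SDHD rose by 0.32 ± 0.09 (SE, adjusted p = 0.00854), and SDHC fell by 0.22 on the log2 scale (adjusted p = 0.0255). Without C4-2 replicate 1 SDHD passed at 0.31 (adjusted p = 0.00376), while SDHA (0.16, adjusted p = 0.0569) and SDHC (−0.18, adjusted p = 0.0523) did not. SDHD no longer passed when LNCaP replicate 2 was left out (adjusted p = 0.0763). The SDHA call was also lost with library totals and without LNCaP replicate 1 or 3 (adjusted p up to 0.115), and that of SDHC without a count filter and without C4-2 replicate 3 or LNCaP replicate 1 or 2 (adjusted p up to 0.0843).

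In complex III, the cytochrome bc1 complex, the 4 genes that rose in MR49F against LNCaP encode small subunits. UQCRQ (ENSG00000164405), a small subunit beside cytochrome b, had 229, 222 and 218 CPM in MR49F, 221, 158 and 161 CPM in C4-2 and 153, 171 and 156 CPM in LNCaP, and rose by 0.48 ± 0.10 on the log2 scale in MR49F against LNCaP (SE, adjusted p = 0.000738). MR49F stood above every LNCaP library. UQCRB, which helps form the quinone site, had 148, 151 and 198 CPM in MR49F and 126, 138 and 131 CPM in LNCaP (0.33 ± 0.10, SE, adjusted p = 0.00972). Its highest library, MR49F replicate 3, carried part of this, and without that library the value was 0.18 with an adjusted p of 0.114. The hinge subunit UQCRH had 121, 114 and 109 CPM in MR49F and 91.9, 100.0 and 97.5 CPM in LNCaP (0.25 ± 0.09, SE, adjusted p = 0.0269), and UQCRHL, a near-identical copy of it, 50.6, 58.0 and 51.8 CPM in MR49F and 44.4, 47.3 and 40.8 CPM in LNCaP (0.27 ± 0.11, SE, adjusted p = 0.0431). The split of reads between these copies is uncertain, and both calls were lost on leaving out any LNCaP library, with adjusted p-values of up to 0.151 and 0.201. The core protein UQCRC2, which took the most counts of the complex, had 306, 288 and 306 CPM in MR49F and 333, 348 and 332 CPM in LNCaP (−0.17 ± 0.07, adjusted p = 0.0627). The electron-carrying subunits did not pass in MR49F, with 0.19 ± 0.11 for cytochrome c1 (CYC1) and −0.10 ± 0.10 for the Rieske protein (UQCRFS1).

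Complex IV, cytochrome c oxidase, changed in isoforms and ubiquitous subunits alike. COX7B (ENSG00000131174), a subunit needed for assembly, had 234, 219 and 228 CPM in MR49F, 154, 122 and 132 CPM in C4-2 and 131, 137 and 120.3 CPM in LNCaP. MR49F exceeded every other library, and COX7B rose by 0.81 ± 0.09 on the log2 scale against LNCaP (SE, adjusted p = 1.89e-07) and by 0.73 ± 0.09 against C4-2 (SE, adjusted p = 3.76e-07). Its isoform COX7B2, known as a testis form, had 0.328, 0.950 and 0.692 CPM in MR49F, 5.12, 4.18 and 4.15 CPM in C4-2 and 3.31, 3.86 and 3.45 CPM in LNCaP. These rest on 3, 8 and 6 counts in MR49F and 31, 34 and 25 counts in LNCaP. COX7B2 fell by 2.43 on the log2 scale (SE 0.33, adjusted p = 3.48e-06), opposite to COX7B but at a far lower level per length.

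The other isoform pair that parted in this way was NDUFA4 and NDUFA4L2. NDUFA4 had 128, 118 and 95.3 CPM in MR49F and 85.8, 95.0 and 92.4 CPM in LNCaP (0.32 ± 0.11, SE, adjusted p = 0.0219), a call that was lost with library totals and on leaving out LNCaP replicate 1 or 3 or MR49F replicate 1 or 2 (adjusted p up to 0.137). NDUFA4L2, a paralogue known to be induced by hypoxia, had 0.657, 0.475 and 1.27 CPM in MR49F, 4.37, 3.29 and 5.01 CPM in C4-2 and 3.10, 3.98 and 3.72 CPM in LNCaP. It fell by 2.15 on the log2 scale (SE 0.33, adjusted p = 1.77e-05), resting on 6, 4 and 11 counts in MR49F and 29, 35 and 27 counts in LNCaP. Of the other muscle, lung or testis forms, COX4I2, COX6A2 and COX7A1 had 0 counts in all libraries, COX8C had 1 count and COX6B2 had 3 counts in the 9 libraries together, and none of them was tested. By these counts the lines expressed mainly the ubiquitous forms of these subunits. The mitochondrially encoded genes were also listed at 0, so a count of 0 here need not mean no expression.

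COX7A2, the ubiquitous form of subunit VIIa, had 140.2, 131 and 130.5 CPM in MR49F, 169, 128 and 129 CPM in C4-2 and 86.9, 90.9 and 92.1 CPM in LNCaP. Both derivatives lay above LNCaP in every library. It rose by 0.57 ± 0.10 on the log2 scale in MR49F (SE, adjusted p = 6.4e-05) and by 0.67 ± 0.10 in C4-2 (SE, adjusted p = 8.39e-06; 0.52 without C4-2 replicate 1), comparisons that share the LNCaP libraries. COX6C, a small membrane subunit, had its highest values in C4-2, with 196, 176 and 215 CPM in MR49F, 268, 223 and 212 CPM in C4-2 and 140.1, 144 and 148 CPM in LNCaP (0.44 ± 0.09 in MR49F, SE, adjusted p = 0.000581; 0.71 ± 0.09 in C4-2, SE, adjusted p = 2.55e-06, and 0.60 without C4-2 replicate 1). COX7C rose in MR49F, with 278, 259 and 267 CPM against 190.1, 204 and 206 CPM in LNCaP (0.42 ± 0.08, SE, adjusted p = 0.000199). COX6B1, which lies on the intermembrane side near the cytochrome c site, fell, with 106, 100.5 and 92.3 CPM in MR49F and 137, 142 and 123 CPM in LNCaP (−0.43 ± 0.11, SE, adjusted p = 0.00255). No library overlapped for either gene.

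COX4I1 (ENSG00000131143), the ubiquitous form of the largest nuclear subunit, had 216, 198 and 203 CPM in MR49F, 408, 315 and 331 CPM in C4-2 and 236, 237 and 243 CPM in LNCaP. C4-2 stood apart as the high line, and MR49F lay just below LNCaP. The log2 fold change was −0.21 ± 0.09 in MR49F against LNCaP (adjusted p = 0.0538) and 0.56 ± 0.09 in C4-2 against LNCaP (adjusted p = 2.11e-05), and 0.44 (adjusted p = 7.05e-07) in C4-2 without replicate 1. MR49F against C4-2 gave −0.78 ± 0.09 (adjusted p = 1.99e-07). COX8A had 128, 131 and 134 CPM in MR49F and 91.6, 113 and 86.2 CPM in LNCaP (0.43 ± 0.17, SE, adjusted p = 0.0458), and its call was lost in 10 of the 19 alternatives other than the 1.5-fold test, the DESeq2 fit, library totals and the replicate block among them. COX5A and COX5B rose by 0.23 and 0.35, and these calls were lost in 12 and 6 of 19 alternatives.

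**Figure D4:**
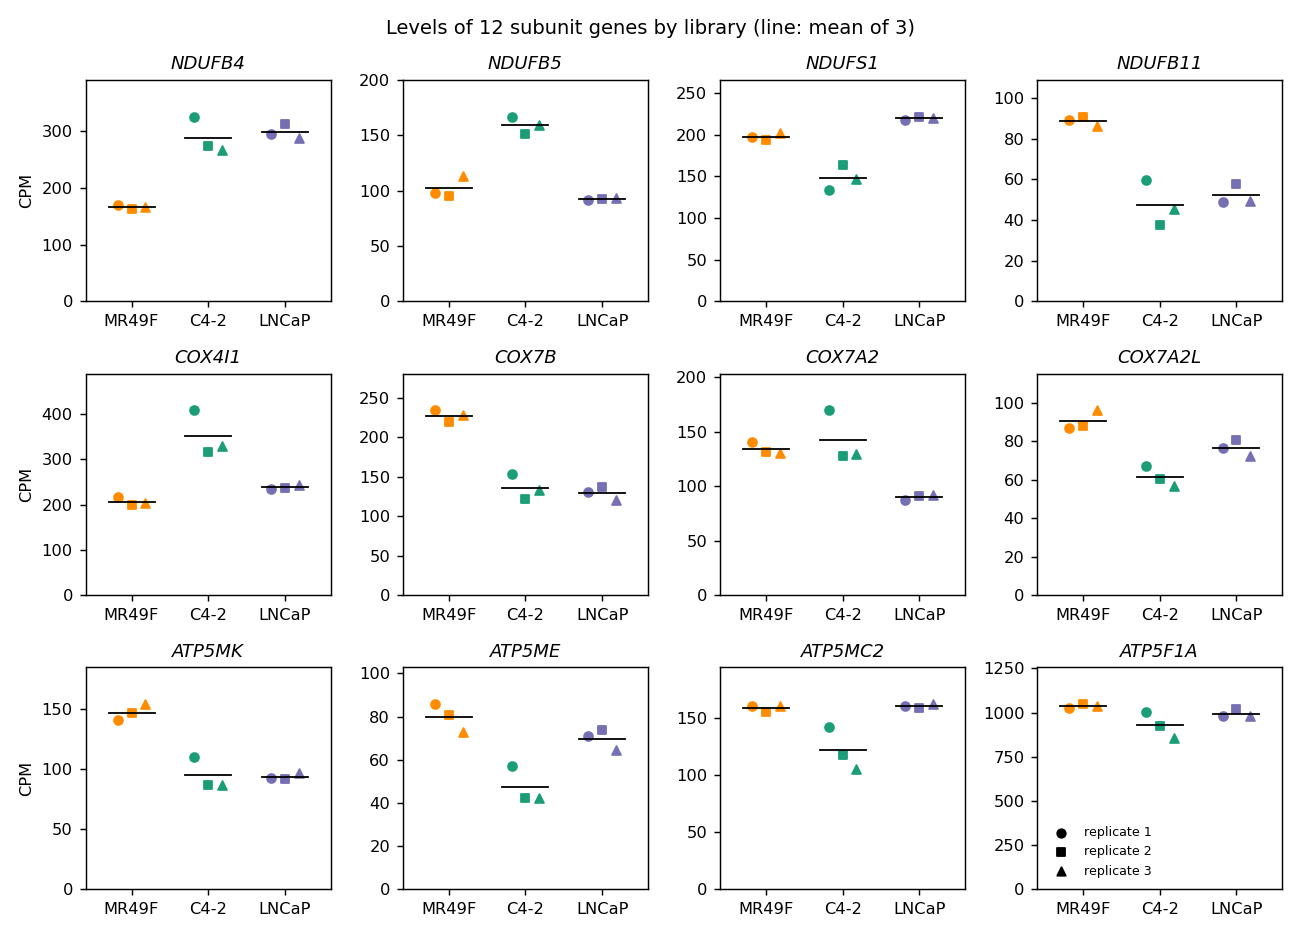
CPM of 12 subunit genes in each library, with 1 point per library, a shape for each replicate number and a short line at the mean, for MR49F, C4-2 and LNCaP. NDUFB4 was low in MR49F, NDUFB5 and COX4I1 were high in C4-2, NDUFB11, COX7B and ATP5MK were high in MR49F, and ATP5ME and ATP5MC2 were low in C4-2.

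Complex V, the ATP synthase, rose in MR49F mainly in its membrane and peripheral stalk subunits. ATP5MK (ENSG00000173915), a small subunit at the dimer interface, had 141, 146 and 154 CPM in MR49F, 110.4, 86.9 and 87.1 CPM in C4-2 and 92.5, 91.9 and 96.5 CPM in LNCaP. MR49F was above both other lines throughout, and ATP5MK rose by 0.65 ± 0.09 on the log2 scale against LNCaP (SE, adjusted p = 6.89e-06). ATP5MF, the f subunit, had 184, 177 and 181 CPM in MR49F, 208, 163 and 161 CPM in C4-2 and 136, 138 and 125 CPM in LNCaP, and rose by 0.44 ± 0.09 (SE, adjusted p = 0.000537). ATP5MJ, a small proteolipid of the membrane part, had 134, 121 and 117 CPM in MR49F and 90.0, 89.6 and 97.0 CPM in LNCaP (0.43 ± 0.10, SE, adjusted p = 0.00191). In the peripheral stalk, the F6 subunit ATP5PF had 115, 116 and 112 CPM in MR49F and 88.9, 88.2 and 88.4 CPM in LNCaP (0.37 ± 0.09, SE, adjusted p = 0.00205). MR49F and LNCaP did not overlap for any of these 4 genes.

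The proton-carrying c ring is encoded by 3 genes whose mature proteins are alike, and they differed in their pattern. ATP5MC3 had 257, 253 and 245 CPM in MR49F, 195, 184 and 171 CPM in C4-2 and 199, 217 and 186 CPM in LNCaP, and rose in MR49F against LNCaP (0.33 ± 0.08, SE, adjusted p = 0.00209). ATP5MC1 also rose (0.42 ± 0.12, SE, adjusted p = 0.00643), with 116, 116 and 88.2 CPM in MR49F and 77.4, 81.5 and 80.6 CPM in LNCaP. ATP5MC2 did not pass in MR49F, at 161, 155 and 159.9 CPM against 160.2, 158 and 162 CPM in LNCaP (−0.02 ± 0.09, adjusted p = 0.905). It fell in C4-2, with 142, 118 and 105 CPM there (−0.38 ± 0.09 against LNCaP, SE, adjusted p = 0.00151; −0.52 without C4-2 replicate 1). In the catalytic head, ATP5F1A, the alpha subunit, had 1025, 1047 and 1037 CPM in MR49F and 981, 1018 and 979 CPM in LNCaP (0.06 ± 0.07, adjusted p = 0.523). ATP5F1B, the beta subunit, had 1756, 1823 and 1737 CPM in MR49F and 1545, 1588 and 1479.9 CPM in LNCaP (0.20 ± 0.08, SE, adjusted p = 0.0326), a call lost in 9 of 19 alternatives. The central stalk was split. Its gamma subunit ATP5F1C (0.04) and delta subunit ATP5F1D (−0.22) did not pass. Its epsilon subunit ATP5F1E rose by 0.42 ± 0.11 (SE, adjusted p = 0.00322).

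Of the 34 subunit genes that rose in MR49F against LNCaP, 20 passed under all 19 alternatives other than the test against a 1.5-fold change, and 14 lost the call in at least 1, with an adjusted p of up to 0.209. Of the 6 that fell, 5 passed under all 19. The 5 were NDUFB4, NDUFA6, COX6B1, COX7B2 and NDUFA4L2. The lower subunit genes are thus few and belong to complexes I and IV, where the low-level isoforms COX7B2 and NDUFA4L2 are counted with complex IV. The test against a 1.5-fold change, which asks for a larger difference, called 2 subunit genes higher and 3 lower.

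The 8 complex I assembly factors took the symbol rule's prefix but are no subunits. In MR49F against LNCaP 4 of the 8 rose and 1 fell, against 24.1% higher and 22.8% lower over all tested genes. NDUFAF2 had 23.9, 24.1 and 27.0 CPM in MR49F, 17.4, 14.8 and 11.2 CPM in C4-2 and 12.2, 13.3 and 13.4 CPM in LNCaP (0.95 ± 0.14 in MR49F against LNCaP, SE, adjusted p = 1.24e-05). NDUFAF7, a mitochondrial methyltransferase, had 37.0, 33.5 and 32.5 CPM in MR49F, 18.2, 18.2 and 14.0 CPM in C4-2 and 20.8, 17.0 and 21.0 CPM in LNCaP (0.81 ± 0.12, SE, adjusted p = 1.22e-05). NDUFAF4 rose by 0.64 ± 0.11 (SE, adjusted p = 6.84e-05). These were larger than the change of most subunits, and MR49F did not overlap either other line. NDUFAF3 rose by 0.31 and NDUFAF1 fell by 0.28 on the log2 scale, and both calls were lost without MR49F replicate 2 or LNCaP replicate 2, that of NDUFAF3 also without MR49F replicate 1 or LNCaP replicate 1 or 3 and with library totals (adjusted p up to 0.116 for NDUFAF3 and 0.103 for NDUFAF1). NDUFAF6, the one with the most counts that did not pass, gave −0.12 ± 0.10 (adjusted p = 0.342).

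The differences between the lines were partly shared with neighbouring genes. In MR49F against LNCaP the members on the X chromosome rose by 0.78 (NDUFA1), 0.77 (NDUFB11) and 0.81 (COX7B), where the 551 other tested X genes had a median of 0.53 and 63.9% were called higher. Chromosomes 16, 19 and 22 were singled out after their values were seen. On them none of 16 tested subunit genes rose and 3 fell, with a median of −0.13. The other tested genes there had medians of −0.30, −0.31 and −0.35, with 6.92%, 6.27% and 3.5% called higher and 45.1%, 47.7% and 52.2% called lower. None of the 16 was higher at an unadjusted p under 0.05 either, nor with DESeq2 or voom. Across the 82 subunit genes Spearman's rho between the log2 fold change and the median of tested genes within 2 Mb was 0.46, given as a description, since genes share libraries and neighbours. It was 0.39 over 79 genes without X and 0.03 over 63 genes without X, 16, 19 and 22. Of these 63, 31 rose and 3 fell, with a median of 0.23. Leaving out chromosomes whose values stood out lowers rho by itself, and leaving out 16, 19 and 22 raises the share that rose. The share of other genes on the remaining chromosomes is not given here, so no conclusion is drawn from these numbers. NDUFB4, with neighbours at −0.01, and ATP5MK, with neighbours at −0.02, differed from their surroundings. In all, 64 of 82 subunit genes lay above their neighbours' median, by a median of 0.16. Copy number was not measured, and its part in these values was not tested.

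**Figure D5:**
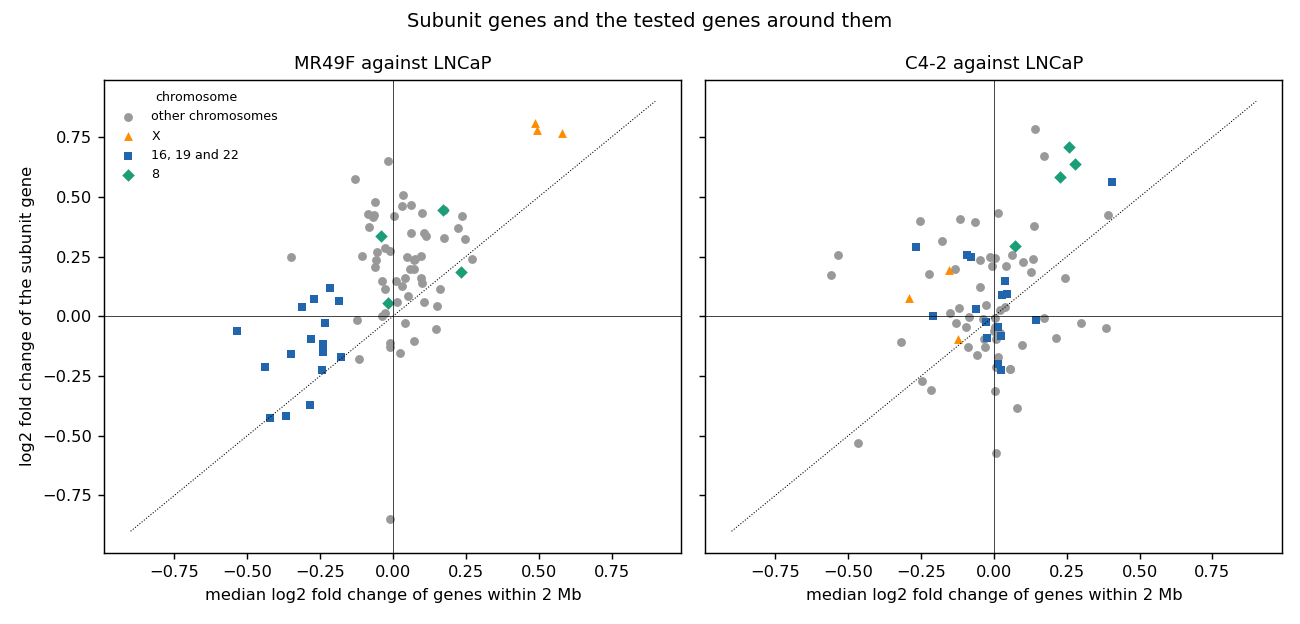
Log2 fold change of each subunit gene against the median log2 fold change of tested genes within 2 Mb, for MR49F against LNCaP and C4-2 against LNCaP, with members on X, on 16, 19 or 22 and on 8 marked, and a dotted line where both values are equal. COX7B2 and NDUFA4L2 lie below the range and are left out of the MR49F panel. In MR49F the X members lie at the upper right (0.77 to 0.81), and in C4-2 all 4 members on chromosome 8 rose.

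C4-2 against LNCaP sets a castration-resistant but enzalutamide-sensitive subline against its parent. With all libraries 17 of 82 subunit genes rose (20.7%) and 7 fell (8.54%), against 26.2% higher and 23.5% lower over all tested genes and 24.7% and 27.6% among those of at least 20 CPM. The median log2 fold change was 0.03, and it became −0.05 with library totals (12 higher, 12 lower) and −0.12 without C4-2 replicate 1. Without that library 13 subunit genes rose and 19 fell. Of the 17 higher calls 13 held and of the 7 lower calls 6 held, and 13 more genes passed as lower. The 19 of 82 that fell were near the 23.5% lower over all tested genes with all libraries. The shares over all tested genes without C4-2 replicate 1 are not given here. C4-2 and LNCaP libraries were free of overlap for 28 of 82 subunit genes (34.1%), against 55.7% of all tested genes. Without C4-2 replicate 2 or 3, which leaves replicate 1 with 1 other library, 29 and 19 rose and 7 and 4 fell.

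By complex, C4-2 against LNCaP gave 7 higher and 3 lower genes in complex I, 2 and 1 in complex II, 2 and 0 in complex III, 4 and 1 in complex IV and 2 and 2 in complex V. DESeq2, voom and an unadjusted p under 0.05 also gave no lower gene in complex III. Without replicate 1 the counts were 6 and 7 in complex I, 1 and 0 in complex II, 2 and 3 in complex III, 3 and 1 in complex IV and 1 and 8 in complex V. Complex V was thus the complex whose count moved most with that library, and its median was −0.03 with it and −0.16 without it.

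The largest difference of C4-2 in complex I was in NDUFB5 (ENSG00000136521), an accessory membrane subunit, with 167, 151 and 159 CPM in C4-2 and 91.4, 92.5 and 93.6 CPM in LNCaP. All C4-2 libraries lay far above LNCaP and MR49F, which had 98.3, 95.4 and 113 CPM. NDUFB5 rose by 0.79 ± 0.08 on the log2 scale (SE, adjusted p = 1.13e-07), and by 0.75 without C4-2 replicate 1. The 4 subunit genes on chromosome 8, NDUFB9, CYC1, UQCRB and COX6C, rose with a median of 0.61. The 537 other tested genes there had a median of 0.19, and 36.9% were called higher. Chromosome 8 was singled out after its values were seen. Other genes had medians of 0.20 on chromosome 7 (41.0% higher), where 3 of 4 subunit genes rose, and 0.22 on chromosome 6 (43.5% higher), which holds COX7A2. Across the 82 subunit genes rho with the median of tested genes within 2 Mb was 0.14 here. NDUFB9, a LYR-motif subunit, had 201, 155 and 152 CPM in C4-2 and 99.2, 112 and 118 CPM in LNCaP (0.64 ± 0.10, SE, adjusted p = 2.87e-05; 0.49 without replicate 1). CYC1, the haem-bearing cytochrome c1, had 342, 241 and 264 CPM in C4-2 and 185, 200.3 and 182 CPM in LNCaP (0.58 ± 0.11, SE, adjusted p = 0.000151; 0.42 without replicate 1). UQCRB rose by 0.29, a call lost without LNCaP replicate 1 or 3 and with library totals (adjusted p up to 0.0934). NDUFS4 and NDUFA9, accessory subunits of the matrix arm, rose by 0.41 and 0.40, and by 0.31 and 0.28 without replicate 1.

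Among the genes that fell in C4-2 against LNCaP, NDUFS1 has been given above, and ATP5ME (ENSG00000169020), the e subunit of the ATP synthase, had 57.0, 42.4 and 42.2 CPM in C4-2 and 70.8, 73.6 and 64.4 CPM in LNCaP. It fell by 0.53 on the log2 scale (SE 0.11, adjusted p = 0.000452), and by 0.72 without replicate 1. COX7A2L, a factor that joins complexes III and IV into supercomplexes, had 67.2, 60.4 and 56.8 CPM in C4-2 and 76.5, 81.0 and 72.4 CPM in LNCaP (−0.31 ± 0.09, SE, adjusted p = 0.00646; −0.39 without replicate 1). Neither gene overlapped between the lines. NDUFV2, a core flavoprotein subunit, fell by 0.31 on the log2 scale, a call that was lost on leaving out C4-2 replicate 3, LNCaP replicate 2 or LNCaP replicate 3, with an adjusted p of up to 0.112. The members with the most counts that did not pass with all libraries in their complexes included ATP5F1B at −0.17 ± 0.08 (adjusted p = 0.0691), UQCRC2 at −0.09 ± 0.07 (adjusted p = 0.325) and NDUFB4 at −0.05 ± 0.08 (adjusted p = 0.654). Without replicate 1 ATP5F1B passed at −0.25 (adjusted p = 0.0015).

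MR49F against C4-2 sets the resistant line against the other sensitive line, and shares its libraries with both comparisons above. Here 31 of 82 subunit genes rose (37.8%) and 15 fell (18.3%), against 29.9% higher and 31.1% lower over all tested genes and 36.3% and 28.1% among those of at least 20 CPM. The median log2 fold change was 0.10, and MR49F and C4-2 libraries were free of overlap for 44 of 82 subunit genes (53.7%), against 61.9% of all tested genes. Without C4-2 replicate 1, 44 rose and 13 fell, with a median of 0.22, and all 31 higher and 13 of the 15 lower calls held. The shares over all tested genes in that fit are not given here. Complex V had 9 of 17 higher and none lower, also without a lower gene at an unadjusted p under 0.05, with DESeq2 or with voom, and 15 higher without replicate 1. Complex I had 12 higher and 8 lower, complex II 1 and 1, complex III 3 and 1, and complex IV 6 and 5.

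The genes that rose most in MR49F against C4-2 were NDUFB11 (0.86 ± 0.12, SE, adjusted p = 3.65e-06), ATP5ME (0.73 ± 0.11, SE, adjusted p = 8.21e-06), COX7B, ATP5MK (0.62 ± 0.09, SE, adjusted p = 6.44e-06), NDUFA1 (0.59 ± 0.08, SE, adjusted p = 4.92e-06) and NDUFA10 (0.56 ± 0.08, SE, adjusted p = 3.69e-06). NDUFS1 rose by 0.42 ± 0.08 (SE, adjusted p = 0.000134). ATP5MC3 rose by 0.46 and ATP5F1B by 0.37. The genes that fell most besides the low-level isoforms were NDUFB4, COX4I1, NDUFA13 (−0.67 ± 0.14, SE, adjusted p = 0.000245), NDUFB5 (−0.64 ± 0.08, SE, adjusted p = 1.03e-06), NDUFS4 (−0.59 ± 0.09, SE, adjusted p = 1.58e-05) and NDUFB9 (−0.58 ± 0.10, SE, adjusted p = 4.75e-05). Without C4-2 replicate 1 these values were −0.70 for NDUFB4, −0.65 for COX4I1, −0.51 for NDUFA13, −0.60 for NDUFB5, −0.49 for NDUFS4 and −0.43 for NDUFB9. MR49F had 39.2, 39.5 and 42.9 CPM of NDUFS4, against 67.2, 58.1 and 55.5 CPM in C4-2. CYC1 fell by 0.40 on the log2 scale (adjusted p = 0.00328) and by 0.23 without C4-2 replicate 1 (adjusted p = 0.0102). SDHA fell (−0.29, adjusted p = 0.00397) and SDHB rose (0.29, adjusted p = 0.00688).

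Pseudogenes limit some of these values. Named pseudogenes were in the table for 52 members, and for 5 they held over 5% of the counts of gene and pseudogenes together. NDUFV2P1 had 6923 counts and NDUFV2 2831, and COX6A1P2 had 12055 and COX6A1 7240. COX6A1 rose in MR49F against LNCaP (0.51 ± 0.14, SE, adjusted p = 0.00444), and with the copies summed in by 0.39 (adjusted p = 0.0195). Its call in C4-2 against LNCaP (0.43, adjusted p = 0.0114) was lost with the copies summed in (0.24, adjusted p = 0.131) and without C4-2 replicate 1 (0.22, adjusted p = 0.0967). The other members with a large pseudogene share were NDUFAF2 (24.6%), SDHA (24.2%) and NDUFA4 (10.8%).

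Genes that work with the complexes were read from 13 lists. In MR49F against LNCaP their counts are read against 24.1% higher and 22.8% lower over all tested genes. Of the assembly factors of complex IV, 11 of 24 were higher in MR49F against LNCaP and none lower by edgeR, DESeq2, voom or an unadjusted p under 0.05, with a median of 0.24. LRPPRC, which stabilises mitochondrial mRNAs, had 342 ± 13.2 CPM in MR49F and 272 ± 2.41 CPM in LNCaP (SD, n = 3 each; 0.33, adjusted p = 0.00147), and fell by 0.43 on the log2 scale in C4-2 against LNCaP (−0.37 without C4-2 replicate 1). COX14, CMC1 and COA4 rose by 0.59, 0.71 and 0.43 in MR49F. The list of complex I assembly factors had 5 higher and 2 lower of 17, complex III 4 and 1 of 8, and complex V assembly and control 3 and 1 of 7. The complex I list includes the 8 NDUFAF members given above, of which 4 rose and 1 fell. TTC19, a complex III factor, had 193 ± 2.82 CPM in MR49F and 125 ± 2.42 CPM in LNCaP (0.63). ATP5IF1, which inhibits ATP hydrolysis by complex V, had 145 ± 14.6 CPM in MR49F and 101 ± 4.89 CPM in LNCaP (0.52). The complex II assembly list had none of 4 called, also at an unadjusted p under 0.05 and with DESeq2 and voom. The supercomplex list had 1 of 3 higher, COX7A2L, which is also counted with complex IV. The electron carriers had 4 higher and 5 lower of 17. The higher shares of complex I assembly and of the electron carriers were near that of all tested genes.

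Of the enzymes that supply electrons, 6 of 13 citric acid cycle genes rose and 1 fell in MR49F against LNCaP. Over all tested genes 24.1% were called higher and 22.8% lower. IDH3G, a subunit of the NAD-dependent isocitrate dehydrogenase, had 77.9 ± 6.54 CPM in MR49F and 41.1 ± 2.07 CPM in LNCaP (SD, n = 3 each; 0.92, adjusted p = 2.02e-07). PDHA1, the catalytic subunit of pyruvate dehydrogenase, had 181 ± 3.28 CPM in MR49F and 100.3 ± 3.21 CPM in LNCaP (0.86, adjusted p = 9.95e-09). PDK1, a kinase that inhibits that enzyme, rose by 0.87 as well, and PDK2 fell by 1.02 on the log2 scale. That list had 4 higher and 2 lower of 11. The adenine nucleotide carriers SLC25A4, SLC25A5 and SLC25A6 rose by 0.56, 0.30 and 0.25, and 4 of 7 carriers rose. The list of other mitochondrial genes had 4 higher and 2 lower of 12. Citrate synthase (CS) did not pass (0.12, adjusted p = 0.151). IDH3G, PDHA1, SLC25A5 and SLC25A6 lie on the X chromosome, the last in a part shared with the Y chromosome. There, tested genes other than the subunit genes had a median of 0.53, and 63.9% were called higher. The genes of these lists were not set against their neighbours, and the part of position in their values was not tested.

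Regulators of mitochondrial genes had 3 higher and 2 lower of 14 in MR49F against LNCaP. The higher share was near the 24.1% of all tested genes, of which 22.8% were called lower. TFAM, which packages and transcribes mitochondrial DNA, was lower in both derivatives, with 132 ± 14.5 CPM in MR49F, 114 ± 10.4 CPM in C4-2 and 224 ± 4.25 CPM in LNCaP (SD, n = 3 each). Its log2 fold change against LNCaP was −0.77 in MR49F (adjusted p = 4.88e-07) and −0.98 in C4-2 (adjusted p = 1.28e-08; −0.91 without C4-2 replicate 1). PPARGC1A, a coactivator of mitochondrial biogenesis, was low but higher in MR49F, at 4.37 ± 0.611 CPM and 1.08 ± 0.226 CPM in LNCaP (1.98, adjusted p = 4.33e-05). In C4-2 against LNCaP PPARGC1A did not pass with all libraries, but without C4-2 replicate 1 it rose by 1.09 (adjusted p = 0.014). ESRRA, which binds the ERR motif, had 74.1 ± 4.47 CPM in MR49F and 50.5 ± 7.81 CPM in LNCaP (0.55, adjusted p = 0.000268). YY1 did not pass (0.10, adjusted p = 0.346).

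In C4-2 against LNCaP the counts of the same lists are read against 26.2% higher and 23.5% lower over all tested genes. Pyruvate dehydrogenase genes had 1 higher and 7 lower of 11 (2 and 7 without replicate 1), complex IV assembly 3 and 6 of 24 (1 and 8), other mitochondrial genes 1 and 5 of 12 (1 and 8), carriers 1 and 4 of 7 (0 and 4) and regulators 0 and 4 of 14 (2 and 3). The lower shares of complex IV assembly and of the regulators with all libraries were near that of all tested genes. No regulator was higher at an unadjusted p under 0.05 or with DESeq2 or voom when all libraries were used. SLC25A6 had 170.5 ± 24.5 CPM in C4-2 and 429 ± 43.6 CPM in LNCaP (SD, n = 3 each; −1.33, adjusted p = 5.81e-10; −1.40 without replicate 1). HSPD1, the mitochondrial chaperonin, had 708 ± 25.2 CPM in C4-2 and 963 ± 6.96 CPM in LNCaP (−0.44 both with and without replicate 1). The remaining lists gave 3 higher and 2 lower of 17 for complex I assembly (2 and 2 without replicate 1), 1 and 0 of 4 for complex II (1 and 1), 1 and 2 of 8 for complex III (1 and 3), 3 and 2 of 7 for complex V (3 and 2), 0 and 1 of 3 for supercomplexes (0 and 2), 3 and 1 of 17 for electron carriers (3 and 2) and 2 and 2 of 13 for the citric acid cycle (2 and 3). In MR49F against C4-2, which shares both sets of libraries, complex IV assembly had 15 higher and 2 lower (17 and 2 without C4-2 replicate 1) and the citric acid cycle 9 and 2 (9 and 2). With all libraries, 29.9% of all tested genes were called higher and 31.1% lower in that comparison.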

How the data were processed

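RNA of 9 libraries was read from a table of counts per Ensembl gene, whole numbers with no normalization, as deposited by the authors. Per the labels, a stranded TruSeq kit and paired reads on a HiSeq2500 were used, and HTSeq 0.6.1, TopHat2, edgeR 3.12.1, FastQC 0.11.3 and GRCh38.p12 appear, without roles, in the submitters' processing notes. Strand setting and annotation release are not given in sources used here, so overlapping and antisense genes are uncertain. Another 3 columns, whose names matched no sample title, were not used. Columns were matched to samples by line and replicate number, and groups follow the sample titles.

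Genes were tested in R 4.3.3 with edgeR 4.0.16 (quasi-likelihood test, robust, TMM scaling, filterByExpr by line), with 1 mean per line over all 9 libraries, 6 residual degrees of freedom and Benjamini-Hochberg adjusted p under 0.05 over 15407 tested genes. SE was taken as the size of the log2 fold change over the square root of F. The p-values measure the spread between these libraries, and precision falls with counts. Recovery was read by fold only, in simulated data of 15407 genes with 50 genes changed at each fold. For MR49F against LNCaP 8%, 58%, 90% and 98% of genes changed 1.25, 1.5, 2 and 4-fold were recovered, with 6 unchanged genes called. C4-2 against LNCaP had shares of 12%, 60%, 88% and 100% (12 unchanged called), and MR49F against C4-2 of 16%, 60%, 92% and 100% (17 unchanged called). Far fewer genes were changed there than were called in the data (24.1% higher and 22.8% lower in MR49F against LNCaP). The adjusted p is a stricter cut when few genes change, so these shares need not hold for the data. The common biological coefficient of variation was 0.0817. No replicate pair was as alike as counting noise (chi-square per degree of freedom 1.50 to 24.1).

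Gene types, coordinates and merged exon lengths came from GENCODE 29 (GRCh38), symbols from a gene name table (56948 of 57992 IDs matched), and promoters from RefSeq (GRCh38.p14). The members and gene lists were chosen with earlier results of these data known, so their counts are set beside those of all tested genes and carry no test of their own. Genes were named by a rule: in each complex and direction up to 4 called genes with the lowest adjusted p and no overlap of libraries, the gene with the most counts that did not pass, the isoform sets, the SDH genes and CYC1, and for other lists up to 4 called genes and the one with the most counts that did not pass, of which some are given here. Other genes in the text were named after their values were seen. A gene that the rule takes is counted but not reported here. Alternatives were DESeq2 1.42.0, voom of limma 3.58.1, library totals, RLE scaling, at least 1 CPM in 3 libraries, no count filter, the 6 libraries of a comparison alone, a replicate block, a test against 1.5-fold, C4-2 replicate 1 thinned, and each library left out. Summing pseudogene copies into their genes was added after seeing the data. Figures were drawn in Python 3.11.15 with matplotlib 3.10.9.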

Additional observations from a re-analysis of the deposited data

Results flagged for a closer look

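COX7A2L, which joins complexes III and IV into supercomplexes, differed in opposite directions between the derivatives. It had 87.2, 88.0 and 96.1 CPM in MR49F, 67.2, 60.4 and 56.8 CPM in C4-2 and 76.5, 81.0 and 72.4 CPM in LNCaP, so MR49F lay above and C4-2 below LNCaP without overlap. Against LNCaP its log2 fold change was 0.24 in MR49F (adjusted p = 0.0306) and −0.31 in C4-2 (adjusted p = 0.00646), by edgeR's quasi-likelihood test. The test of the difference itself, MR49F against C4-2, gave 0.55 ± 0.09 (SE, adjusted p = 1.74e-05), and 0.63 without C4-2 replicate 1. The call against LNCaP in MR49F was lost with library totals and no count filter, and on leaving out any LNCaP library or MR49F replicate 3, with an adjusted p of up to 0.162. In the same comparisons, tested genes within 2 Mb had medians of 0.27, −0.21 and 0.21.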

How the results depend on the processing

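Counts below are of all 90 tested members, given as higher and lower, unless said otherwise, and are 38 and 7 in the test described above for MR49F against LNCaP, 17 and 8 for C4-2 against LNCaP and 36 and 16 for MR49F against C4-2. The test against a 1.5-fold change gave 3 and 3 members (988 and 1137 of all genes) in MR49F against LNCaP, 1 and 0 (1449 and 672) in C4-2 against LNCaP, where edgeR gave 0 lower at an unadjusted p under 0.05 too, and 2 and 4 (1298 and 2100) in MR49F against C4-2. Library totals gave 25 and 15 with a median log2 fold change of 0.080 for MR49F against LNCaP, and 13 lower members for C4-2 against LNCaP. With only the 6 libraries compared 13 members were lower in MR49F against LNCaP. Without a count filter the member median in MR49F against C4-2 was 0.081. Of these fits, only the 1.5-fold test has its counts over all genes given here. In the others a change in the members cannot be told from a change over all genes. The causes were not tested.

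With 1 library left out, MR49F against LNCaP had 25 (without LNCaP replicate 1) to 45 higher members, 6 to 10 lower and a median of 0.15 to 0.21. C4-2 against LNCaP had 11 (without LNCaP replicate 3) to 29 higher (without C4-2 replicate 2), 5 (without C4-2 replicate 3) to 20 lower (without C4-2 replicate 1) and a median of −0.12 to 0.11. MR49F against C4-2 had 29 to 50 higher, 13 to 18 lower and a median of 0.045 (without C4-2 replicate 2) to 0.24 (without C4-2 replicate 1). Counts over all genes with 1 library left out are not given here, so these ranges describe the members alone. The replicate numbers do not pair the libraries (correlation of same-numbered deviations −0.08 to 0.06), and the fit with a replicate block gave 38 and 8, 17 and 9, and 36 and 16 members, with medians of 0.17, 0.01 and 0.12, and 3646 and 3469, 3907 and 3553, and 4552 and 4709 of all genes. No single gene named changed sign while called under the alternatives run. Over single named genes and alternatives, 1656 values kept their side of the threshold in MR49F against LNCaP, 89 lost it and 22 gained it. The counts were 1619, 54 and 18 in C4-2 against LNCaP and 1752, 23 and 11 in MR49F against C4-2.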
